A study of Mus musculus with 6 samples.

Results

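The FoxO transcription factors and 7 genes of antioxidant defence were followed in long-term hematopoietic stem cells (LT-HSCs) of WT and Foxm1 HET mice. The 10 genes are Foxo1, Foxo3, Foxo4, Sod1, Sod2, Cat, Gpx1, Prdx1, Txn1 and Txnip. They were picked by symbol and not by a cut on their values, and all 10 were found among the 27179 genes of the count table. Of the 10, 9 passed the filter on low counts and entered the test, and Foxo4 did not. LT-HSCs were sorted as CD150+CD48-LSK cells from the BM of C57BL/6 mice at 8 weeks of age, and their RNA was sequenced in 3 WT and 3 Foxm1 HET libraries. By the labels' genotype the HET mice are Foxm1 heterozygous, while the titles of their libraries name a floxed allele and no Cre. The methods use Tie2-Cre or Mx1-Cre mice with 1 floxed allele and do not say which were sequenced. The Cre driver is therefore not known here. For the Tie2-Cre mice the paper states loss of 1 allele in hematopoietic stem and progenitor cells. The methods speak of pairs of mutant and control mice, and the labels do not tie a library to a single animal, so p-values here measure the spread between these libraries.

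FoxO factors are forkhead transcription factors that AKT keeps out of the nucleus when growth factor signalling is high. In the nucleus they activate genes of cell cycle arrest and of the removal of reactive oxygen, and in mice their loss raises reactive oxygen in HSCs and drives these cells out of quiescence. Superoxide dismutases turn superoxide into hydrogen peroxide, catalase, glutathione peroxidases and peroxiredoxins remove the peroxide, and thioredoxin returns oxidized peroxiredoxins to their reduced form. Txnip binds thioredoxin and inhibits it.

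Txnip was the 1 gene of the 9 tested whose genotypes did not overlap, with a higher level in all 3 Foxm1 HET libraries under TMM scaling, though not under RLE scaling or with library size alone. Genotypes did not overlap for 8.68% of all 8195 genes tested, 4.12% with Foxm1 HET higher and 4.55% with it lower, so 1 of 9 is near the background. Its partner Txn1 was at a low level in all 3 Foxm1 HET libraries and in 1 of the 3 WT libraries. In edgeR's quasi-likelihood test, 0 of the 9 genes had an adjusted p under 0.05, against 0.329% of all 8195 genes tested (0.317% higher and 0.0122% lower in Foxm1 HET). An unadjusted p under 0.05 was likewise found for 0 of the 9 genes in edgeR, where 6.03% of all genes had one, for 1 (Txn1) of the 8 to which DESeq2 gave an adjusted p, where 13.1% of all genes with a p had one, and for 0 of the 9 in limma-voom, where 3.31% did. With 3 libraries a group and this spread, the 95% intervals of the 9 log2 fold changes all included 0, and the narrowest, that of Cat, ran from -3.59 to 2.36. In sorted cells measured in bulk, a lower level of a transcript in each cell and a smaller share of cells that hold it cannot be told apart.

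The upstream sequences of Txnip and Txn1 are shown because of values described here. Txnip had genotypes apart under TMM scaling, and Txn1 had the largest fitted log2 fold change of the 9 genes tested. Neither had an adjusted p under 0.05 in edgeR. Each is the 250 bases before the transcription start, 5′ to 3′ on the strand of the gene, from RefSeq on GRCm38.p6. Txnip is read from chr3:96557707-96557956 on the + strand and Txn1 from chr4:57956412-57956661 on the - strand. Capitals mark matches, on either strand, to GTAAACA (a FoxO motif), TGACNNNGC (the core of the antioxidant response element), CACGTG (an E-box) or CCAAT (the CCAAT box), and no 2 matches overlap in Txnip.
Txnip: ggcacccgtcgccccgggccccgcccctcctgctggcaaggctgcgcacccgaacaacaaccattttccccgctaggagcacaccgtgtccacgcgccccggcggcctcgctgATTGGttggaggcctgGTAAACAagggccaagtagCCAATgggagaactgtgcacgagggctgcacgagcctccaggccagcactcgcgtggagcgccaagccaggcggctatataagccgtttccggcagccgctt
Txn1: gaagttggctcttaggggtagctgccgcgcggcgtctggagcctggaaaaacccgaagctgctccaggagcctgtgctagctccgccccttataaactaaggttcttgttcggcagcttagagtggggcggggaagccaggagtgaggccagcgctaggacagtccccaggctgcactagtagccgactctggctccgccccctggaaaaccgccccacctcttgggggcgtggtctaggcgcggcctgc

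The Txnip sequence holds 1 GTAAACA, which begins 121 bases before the start and lies between a pair of CCAAT boxes, 1 of them on the opposite strand. The Txn1 sequence holds no match to any of the 4 motifs. Upstream sequences were found for 9 of the 10 genes, all but Foxo4. GTAAACA was in Txnip alone of the 9, TGACNNNGC was in Sod1 and Prdx1, CACGTG was in none, and CCAAT was in Foxo1, Sod1, Sod2, Cat and Txnip. Of 32851 RefSeq upstream sequences of the same length, 3.17% held GTAAACA, 10.2% TGACNNNGC, 6.02% CACGTG and 33.8% CCAAT. A match is a run of letters and not a measured binding site, and a window without one says nothing about the factor.

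Library depth bears on every value below. Counted reads ran from 14573002 to 25798509 a library, and Foxm1 HET replicate 2 had the fewest. That library also had the lowest TMM scaling factor (0.453, against 0.757 to 1.67 in the others), 49.4% of the tested genes under 10 reads (4.70% to 33.2% in the others) and 6 of the 10 genes under 100 reads (1 or 2 in the others). Foxm1, the targeted gene, had 1182, 2615 and 2942 reads in WT against 659, 5 and 742 reads in Foxm1 HET replicates 1, 2 and 3. In edgeR this gave a log2 fold change of -3.30 (SE 2.33, adjusted p = 0.961, quasi-likelihood test). Of 12 LT-HSC markers, 6 had at least 10 reads in every library, among them Kit and Hlf, and the other 6 were under 10 reads in at least 1 library. Ly6a, which encodes the Sca-1 of the LSK gate, had 125, 4 and 2 reads in WT against 2261, 2 and 1597 in Foxm1 HET. Slamf1, which encodes the CD150 used in the sort, had 2, 1572 and 0 reads in WT against 8, 0 and 543 in Foxm1 HET. Cd48, used to gate cells out, had 221, 6608 and 1 reads in WT against 1285, 5 and 22 in Foxm1 HET.

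Foxo1 (chromosome 3, 52268337 to 52350109), a FoxO factor that mediates much of the response to insulin and growth factors, was present in all 3 Foxm1 HET libraries and very uneven in WT. Its counts were 641, 2760 and 4 reads in WT against 1347, 1178 and 1553 reads in Foxm1 HET replicates 1, 2 and 3. Only WT replicate 3 was near 0, and WT replicates 1 and 2 lay on either side of Foxm1 HET replicates 1 and 3 once scaled. As CPM, the count scaled to the TMM-adjusted size of its library, the values were 29.0, 122 and 0.250 in WT against 35.4, 182 and 37.1 in Foxm1 HET. The fitted log2 fold change was 0.75 (SE 2.12, adjusted p = 0.998, edgeR) and the direction turned to -0.44 without Foxm1 HET replicate 2. The difference of mean log2 CPM was larger, 2.56, because the mean of logs weighs the 4 reads of WT replicate 3 more than the fit does.

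Foxo3 (chromosome 10, 42185786 to 42276742), the FoxO factor best known for the upkeep of HSCs, had 1 low library in each genotype. Counts were 2246, 4433 and 161 reads in WT against 2949, 22 and 4666 reads in Foxm1 HET. The low libraries were WT replicate 3 and Foxm1 HET replicate 2, and the other 4 libraries lay between 77.4 and 196 CPM with the genotypes interleaved. The log2 fold change of Foxo3 was -0.68 (SE 2.02, adjusted p = 0.998, edgeR), and it turned to 0.16 without WT replicate 2. Per unit of length, as TPM (the count divided by gene length and scaled to the same total in each library), Foxo3 exceeded Foxo1 in 5 of the 6 libraries, by 3.09-fold to 77.4-fold. In Foxm1 HET replicate 2 the ratio was 0.0359, and under TMM scaling that library held the highest CPM of Foxo1 and the lowest of Foxo3. With library size alone, Foxo1 was highest in WT replicate 2 (123 CPM, against 82.4 CPM in Foxm1 HET replicate 2).

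Foxo4 (X chromosome, 101254528 to 101260873), the least abundant of the family here, was close to the limit of detection. It had 43, 0 and 0 reads in WT against 7, 14 and 0 reads in Foxm1 HET. A count of 0 still allows up to 3 reads, which is 0.133 and 0.188 CPM in WT replicates 2 and 3 and 0.0717 CPM in Foxm1 HET replicate 3. At this depth no difference between genotypes was detectable, and the gene was left out of the test by the filter.

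**Figure D1:**
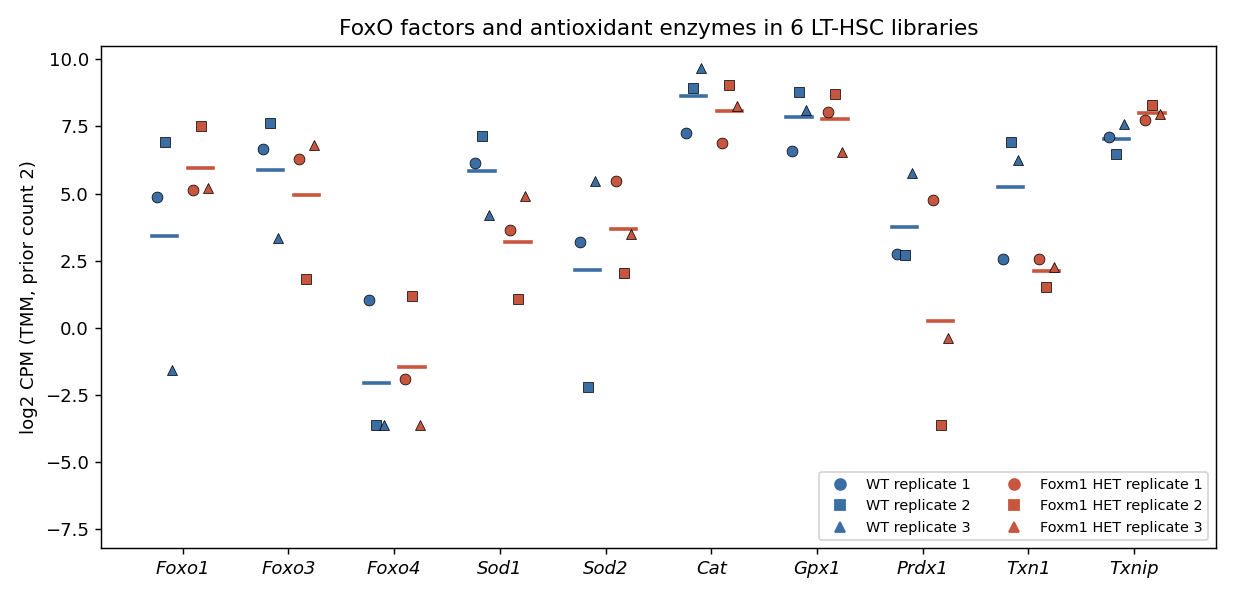
The 10 genes are on the x axis and log2 CPM (TMM scaling, prior count 2) is on the y axis, with 1 point per library, shape for the replicate number, and a bar at the mean of 3 libraries. Txnip, Cat and Gpx1 form tight groups high on the axis, and for Txnip all 3 Foxm1 HET points lie above all 3 WT points under this scaling, which RLE or library-size scaling does not keep.

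Sod1 (chromosome 16, 90220742 to 90226324), the copper and zinc superoxide dismutase of the cytosol, tended to lower values in Foxm1 HET with overlap. Its counts were 1540, 3172 and 296 reads in WT against 476, 13 and 1258 reads in Foxm1 HET. In CPM these were 69.6, 140 and 18.5 in WT against 12.5, 2.01 and 30.1 in Foxm1 HET, so that Foxm1 HET replicate 3 exceeded WT replicate 3 and the other libraries were separated. Fitted over all libraries, the log2 fold change was -2.36 (SE 2.43, adjusted p = 0.998, edgeR), and the mean log2 CPM was 5.82 ± 1.48 (SD) in the 3 WT libraries and 3.21 ± 1.96 (SD) in the 3 Foxm1 HET libraries. The fold change of Sod1 remained negative, from -3.29 to -1.60, in all 15 alternatives to this fit. The two-sided exact permutation test over libraries gave p = 0.2.

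Sod2 (chromosome 17, 13007839 to 13018119), the manganese superoxide dismutase of mitochondria and a known FoxO target, showed no common direction. It had 198, 3 and 712 reads in WT against 1671, 26 and 472 reads in Foxm1 HET. Each genotype had 1 library under 50 reads, and WT replicate 3 and Foxm1 HET replicate 1 were almost equal at 44.5 and 43.9 CPM. For Sod2 the log2 fold change was 0.14 (SE 2.74, adjusted p = 0.998, edgeR). It was negative without WT replicate 1, without WT replicate 2 and without Foxm1 HET replicate 1. Sod1 and Sod2 were low in different WT libraries, and the ratio of Sod1 to Sod2 in TPM ran from 2.45 to 6240 in WT and from 1.68 to 15.7 in Foxm1 HET.

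Cat (chromosome 2, 103453904 to 103485153), which encodes catalase and is another known FoxO target, was high in all 6 libraries. Its counts were 3351, 11032 and 13167 reads in WT against 4464, 3401 and 12981 reads in Foxm1 HET. These correspond to 152, 488 and 823 CPM in WT against 117, 525 and 310 CPM in Foxm1 HET, with the genotypes interleaved. In the fit Cat had a log2 fold change of -0.62 (SE 1.52, adjusted p = 0.998, edgeR), and it was negative in all 15 alternatives but as small as -0.04 without WT replicate 3. Of the exon bases of Cat, 12.7% also lie in an unnamed gene on the opposite strand, which had 0 reads in 5 libraries and 12 in Foxm1 HET replicate 3. Catalase is abundant in red cell precursors, and the summed level of 8 erythroid markers was 410, 535 and 2341 CPM in WT against 639, 574 and 518 CPM in Foxm1 HET, with 1 higher and 6 lower in Foxm1 HET of the 7 tested. WT replicate 3 had the highest level both of Cat and of these markers, and their part in the Cat values was not tested. Among the markers Hba-a1 had 0 reads in every library. Hba-a2 had 70, 508 and 1009 reads in WT against 332, 2 and 0 in Foxm1 HET. Slc4a1 had 956, 6572 and 21700 reads in WT against 9817, 436 and 1233 in Foxm1 HET. Car1 went the other way, with 1688, 4 and 6 reads in WT against 4645, 2319 and 7346 in Foxm1 HET.

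Gpx1 (chromosome 9, 108339080 to 108340342), a selenium-dependent glutathione peroxidase, had the smallest fitted difference between genotypes. It was counted at 2143, 10060 and 4406 reads in WT against 10094, 2675 and 3893 reads in Foxm1 HET. The libraries were interleaved, from 93.1 to 445 CPM over all 6, with the lowest value in Foxm1 HET replicate 3 and the highest in WT replicate 2. Gpx1 had a log2 fold change of -0.08 (SE 1.60, 95% interval -3.23 to 3.06, adjusted p = 0.998, edgeR). Its sign depended on the scaling, with 0.47 under RLE and 0.32 under upper-quartile scaling, so no direction can be given.

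Prdx1 (chromosome 4, 116685599 to 116700000), a peroxiredoxin of the cytosol, was carried by 1 high library in each genotype. It had 148, 147 and 878 reads in WT against 1027, 0 and 29 reads in Foxm1 HET. Foxm1 HET replicates 2 and 3 were below all WT libraries, and Foxm1 HET replicate 1, at 27.0 CPM, was above WT replicates 1 and 2 at 6.69 and 6.51 CPM. For Prdx1 the log2 fold change was -1.30 (SE 2.83, adjusted p = 0.998, edgeR). It turned to 0.45 without WT replicate 3 and became -5.79 without Foxm1 HET replicate 1. Of the 50-base stretches of its transcripts, 8.81% also occur in other genes, and for Sod2 this share was 21.0%. The counting could have lost or split reads of these genes. For Txnip the share was 15.7%, all with Gm15441, whose exons overlap those of Txnip on the opposite strand. Reads of that overlap could also have been lost.

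Txn1 (chromosome 4, 57943373 to 57956411), which encodes thioredoxin, was above 10 CPM in WT replicates 2 and 3 alone. Its counts were 127, 2699 and 1203 reads in WT against 219, 18 and 199 reads in Foxm1 HET. In CPM the values were 5.74, 120 and 75.2 in WT against 5.75, 2.78 and 4.76 in Foxm1 HET. WT replicate 1 and Foxm1 HET replicate 1 were level, and this tie was the 1 overlap between the genotypes. The mean log2 CPM was 5.23 ± 2.35 (SD) in the 3 WT libraries and 2.11 ± 0.53 (SD) in the 3 Foxm1 HET libraries. The log2 fold change of -3.91 was the largest of the 9 genes, with a 95% interval from -9.31 to 1.49 (SE 2.75, unadjusted p = 0.156, adjusted p = 0.961, edgeR).

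The negative sign of Txn1 was found in all 15 alternatives, from -4.37 to -2.73, and their adjusted p ran from 0.183 to 1. The lowest was from DESeq2 (unadjusted p = 0.0138). With genes restricted to those with at least 10 reads in every library, edgeR gave Txn1 an unadjusted p of 0.0290, under 0.05 as for 6.24% of the genes then tested, and an adjusted p of 0.692. In the deposited log2 table Txn1 stood at 3.35, 7.79 and 6.78 in WT against at 2.92, 4.15 and 2.65 in Foxm1 HET, again with 1 WT library within the range of Foxm1 HET. The two-sided exact permutation test on log2 CPM gave p = 0.2.

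Txnip (chromosome 3, 96557957 to 96561857), the inhibitor of thioredoxin and also a brake on glucose uptake, was higher in Foxm1 HET LT-HSCs by a modest margin. Its counts were 3060, 1985 and 3044 reads in WT against 8148, 2013 and 10548 reads in Foxm1 HET. The CPM values were 138, 87.9 and 190 in WT against 214, 311 and 252 in Foxm1 HET, and the highest WT library lay below the lowest Foxm1 HET library. Mean log2 CPM was 7.05 ± 0.56 (SD) in the 3 WT libraries and higher by 0.95 in the 3 Foxm1 HET libraries, whose SD was 0.27. The two-sided exact permutation test gave p = 0.1, the smallest that 3 libraries against 3 allow. With edgeR the log2 fold change was 0.90 (SE 1.69, 95% interval -2.41 to 4.21, adjusted p = 0.998, quasi-likelihood test).

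The separation of Txnip depended on how libraries were scaled. Upper-quartile scaling gave at most 157 CPM in WT and at least 261 CPM in Foxm1 HET, and 8.57% of all genes had genotypes apart. Under RLE scaling WT replicate 3 (186 CPM) exceeded Foxm1 HET replicate 1 (169 CPM), and with library size alone WT replicate 1 (156 CPM) and WT replicate 3 (144 CPM) exceeded Foxm1 HET replicate 2 (141 CPM). The share of all genes with genotypes apart was 8.83% under RLE and 7.97% with library size alone. In the deposited log2 table the values were 6.93, 5.92 and 6.71 in WT against 8.31, 7.00 and 8.66 in Foxm1 HET, which did not overlap, and neither did 9.64% of the 12179 genes of that table (5.87% with Foxm1 HET higher). The limma difference there was 1.47 (95% interval -0.54 to 3.48, adjusted p = 0.930). Dropping Foxm1 HET replicate 2 from the same TMM-scaled values could only leave the genotypes apart, so it adds no support. The share of all genes apart was then 19.0%. The log2 fold change of Txnip was positive in all 15 alternatives, from 0.63 to 1.47. Of the exon bases of Txnip, 21.6% also lie in Gm15441 on the opposite strand, which had 0 reads in every library.

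**Figure D2:**
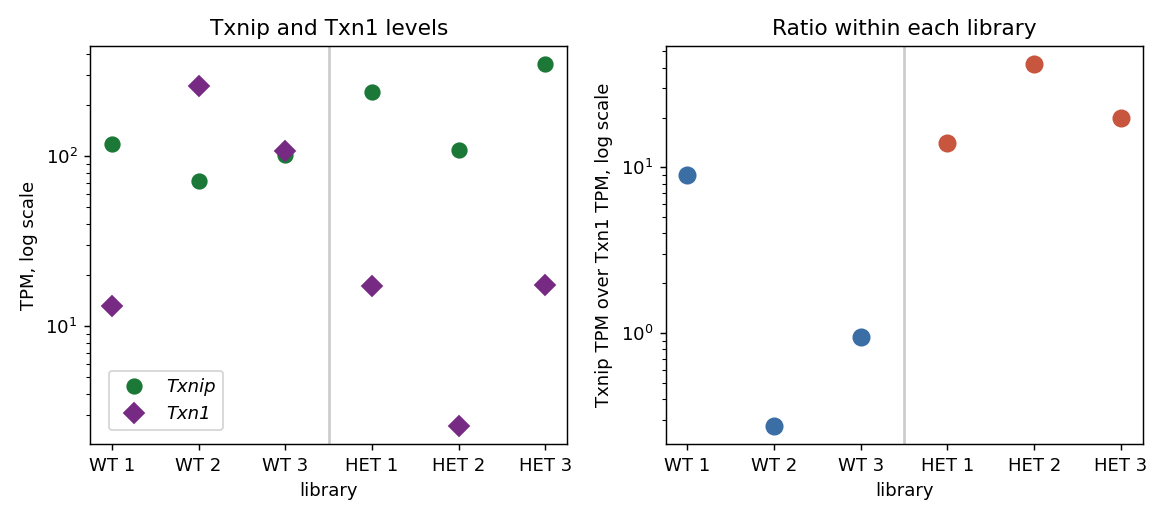
The left panel plots TPM (log axis) of Txnip and Txn1 in each library, and the right panel plots the ratio of Txnip TPM to Txn1 TPM (log axis), with WT in blue and Foxm1 HET in red. Txn1 lies above Txnip in WT replicates 2 and 3 alone, and the ratio is at most 9.04 in WT and at least 14.0 in Foxm1 HET.

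Per unit of length, Txn1 was above Txnip in WT replicate 2 (259 against 71.5 TPM) and WT replicate 3 (107 against 101 TPM) and below it in the other 4 libraries. The ratio of Txnip to Txn1 in TPM, which scaling does not alter, was 9.04, 0.276 and 0.949 in WT against 14.0, 42.0 and 19.9 in Foxm1 HET. This ratio was chosen after the values of both genes were seen, so its separation of the genotypes restates them, adds no support and was not tested. In Foxm1 HET replicate 2 it rests on 18 Txn1 reads. The ratio of Cat to Gpx1 was 0.641, 0.449 and 1.22 in WT against 0.181, 0.521 and 1.37 in Foxm1 HET, with the genotypes interleaved.

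**Figure D3:**
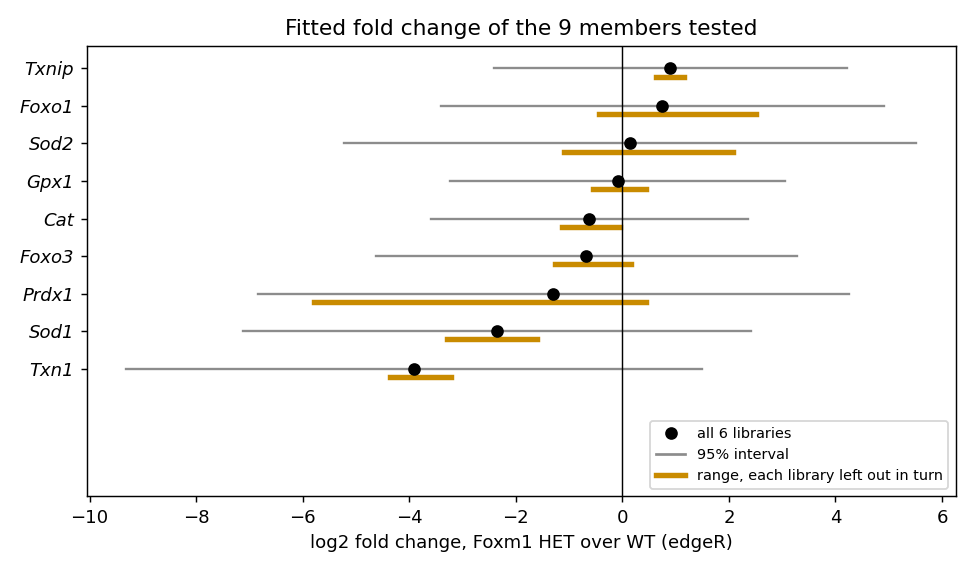
The log2 fold change of Foxm1 HET over WT from edgeR is on the x axis for the 9 genes tested, with 95% intervals as grey lines and, in ochre, the range over the fits that each omit 1 library. Every interval includes 0, and the ochre range stays on 1 side of 0 for Txnip, Cat, Sod1 and Txn1 and crosses it for the other 5 genes.

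Over the 9 genes, 3 fitted log2 fold changes were positive and 6 negative, with a median of -0.62. All 8195 genes tested had 3724 positive and 4471 negative values with a median of -0.26. The median of all genes moved with the scaling, to -0.13 under RLE, 0.14 under upper-quartile scaling and 0.10 with library size alone. Under the same scalings the median of the 9 genes was -0.05, -0.22 and -0.05. The median of the 9 genes less that of all genes was -0.36 under TMM, -0.36 under upper-quartile scaling, -0.15 with library size alone and 0.07 under RLE, so its sign depended on the scaling.

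Neutrophil and myeloid markers also moved between libraries. Their 10 genes summed to between 6595 and 23400 CPM in WT and between 1312 and 17210 CPM in Foxm1 HET, with 7 of the 10 lower and 3 higher in Foxm1 HET and 0 with an adjusted p under 0.05. Defining markers of other lineages were at 0 in all 6 libraries for C1qa and C1qb of macrophages, Cd79a, Ebf1, Vpreb1 and Ms4a1 of B cells, and Cd3d, Cd3g and Trbc2 of T cells. Other markers of these lineages were counted. Csf1r of macrophages had 2717, 312 and 486 reads in WT against 1959, 486 and 110 in Foxm1 HET. Cd79b of B cells had 967, 289 and 3 against 170, 0 and 0, and Cd4 of T cells had 1, 1 and 275 against 111, 527 and 2416. The part of myeloid cells in the values of the 10 genes was not tested.

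Over all 10 genes, Gpx1 and Cat led in TPM. The median over the 6 libraries was 390 TPM for Gpx1 and 319 TPM for Cat. Sod1 followed at 120.0 TPM, Txnip at 113 TPM and Foxo3 at 84.2 TPM. Lower medians were found for Foxo1 (22.9 TPM), Txn1 (17.3 TPM), Prdx1 (10.9 TPM), Sod2 (8.52 TPM) and Foxo4 (0.0911 TPM). Each gene's range over libraries overlapped that of its neighbours in this order. Compared within libraries, Sod2 was above Foxo4 in all 6, though on 3 reads against 0 in WT replicate 2. The order of the other neighbours changed between libraries and was not resolved. Gpx1 ranged from 222 to 972 TPM and Foxo4 from 0 to 1.48 TPM, and those ranges were far apart.

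Ranked among all tested genes within each library, Cat was between the 87.1 and the 97.5 percentile, Gpx1 between 79.8 and 97.0, and Txnip between 75.7 and 95.9. These 3 genes were thus in the upper part of the distribution in all 6 libraries. Txnip was at percentiles 85.4, 75.7 and 85.6 in WT against 95.7, 87.7 and 95.9 in Foxm1 HET, so its genotypes were apart in rank too, as were those of 9.24% of all genes. Prdx1 spanned the widest interval, from 9.15 in Foxm1 HET replicate 2 to 69.1 in WT replicate 3. Txn1 fell between percentiles 27.3 and 53.6 in Foxm1 HET and stood at 36.8, 80.5 and 73.4 in WT. The 53.6 was that of Foxm1 HET replicate 2 on 18 reads, in a library with 49.4% of the tested genes under 10 reads.

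**Figure D4:**
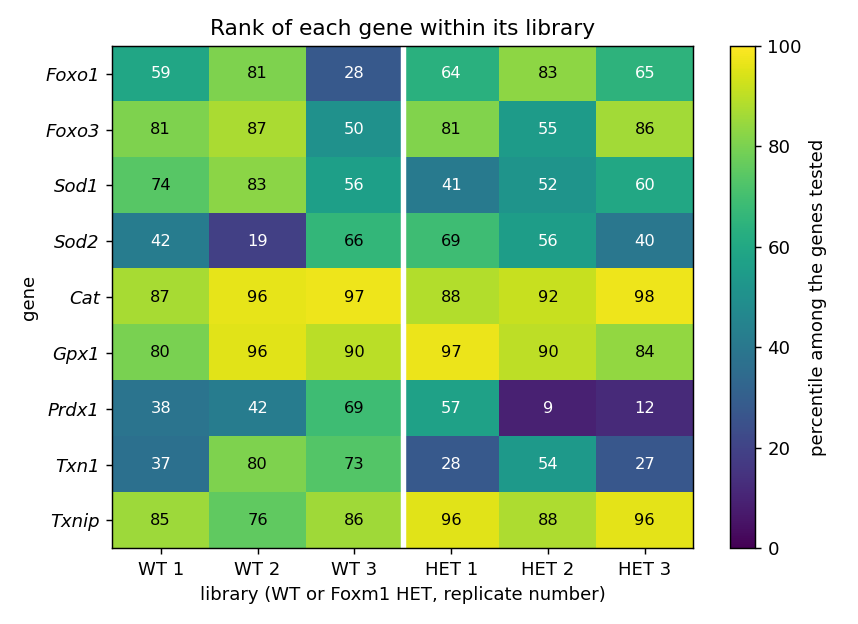
Rows are the 9 genes tested and columns the 6 libraries, and color and printed number give the percentile of the gene's scaled count among the genes tested in that library. Cat, Gpx1 and Txnip stay above 75 in every library, whereas Foxo1, Sod2, Prdx1 and Txn1 each have at least 1 library under 30.

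The spread between libraries of 1 genotype set these genes apart from each other. The SD of log2 CPM within genotypes was 0.44 for Txnip, 1.11 for Gpx1 and 1.18 for Cat, and 3.28 for Foxo1, 3.23 for Prdx1 and 3.05 for Sod2. For Txnip that SD was at percentile 0.366 of all genes tested, where its mean level was at percentile 94.9. From the lowest to the highest library, Txnip varied 3.54-fold in CPM, Gpx1 4.79-fold and Cat 7.03-fold. Foxo3 varied 57.7-fold, Sod1 69.9-fold, Sod2 335-fold and Foxo1 728-fold. The median SD of the 9 genes was 1.74, against 3.14 over all genes tested. By mean level all 9 but Prdx1 (percentile 38.8) lay at percentile 51 or above, and this comparison was not matched for level. Foxm1 HET replicate 2 held the lowest value of 4 of the 9 genes (31.1% of all genes tested), and WT replicate 2 held the highest of 4 (19.4%).

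Around the 10 genes, 125 further genes of FoxO signalling and redox defence were listed, of which 97 passed the filter. Of these 97, 46 had a positive and 51 a negative log2 fold change, with a median of -0.06, and 0 had an adjusted p under 0.05 in edgeR. An unadjusted p under 0.05 was found for 7 that were higher and 1 that was lower in Foxm1 HET, or 8 of 97 against 6.03% of all genes tested. Genotypes did not overlap for 6 higher and 6 lower genes, where the background was 8.68%. With upper-quartile scaling 1 gene, Fbxo32, had an adjusted p under 0.05 (0.0311), as did 0.525% of all genes, and with DESeq2 1 gene, Irs2, did (0.0177), as did 3.13% of all genes given an adjusted p.

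Among 21 tested inputs and partners of FoxO, the kinases, phosphatases and adaptors that set its activity, 13 were higher and 8 lower. Tsc2, a brake on mTOR, had 1080, 10 and 732 reads in WT against 3222, 17062 and 1706 reads in Foxm1 HET (log2 fold change 4.86, SE 1.74, adjusted p = 0.343, edgeR). Most of its reads came from Foxm1 HET replicate 2. Mtor itself had a log2 fold change of -1.93 (adjusted p = 0.998), and Skp2, which marks Foxo1 for degradation, of 4.18 (adjusted p = 0.897).

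Of 19 further FoxO target genes tested, 10 were higher and 9 lower, with a median of 0.39. Fbxo32, the muscle atrophy ubiquitin ligase, had the smallest adjusted p of all 97 (0.0747, log2 fold change 6.54, SE 1.81, edgeR). It had 6, 610 and 207 reads in WT against 14, 24254 and 149 reads in Foxm1 HET, so the value rests on Foxm1 HET replicate 2, and the genotypes overlapped. Irs2, an adaptor of the insulin receptor, was higher in every Foxm1 HET library, with 231, 9 and 12 reads in WT against 2226, 2913 and 759 in Foxm1 HET (log2 fold change 5.50, SE 2.39, adjusted p = 0.658, edgeR). Pik3ip1, an inhibitor of PI3 kinase named after its values were seen because it was the other target with an unadjusted p under 0.05, had 13, 2 and 250 reads in WT against 1517, 2326 and 2288 in Foxm1 HET (adjusted p = 0.797, edgeR). Bcl6 and Sesn3 had negative log2 fold changes of -2.81 and -3.27, each carried by WT replicate 2, with adjusted p = 0.982 for both.

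**Figure D5:**
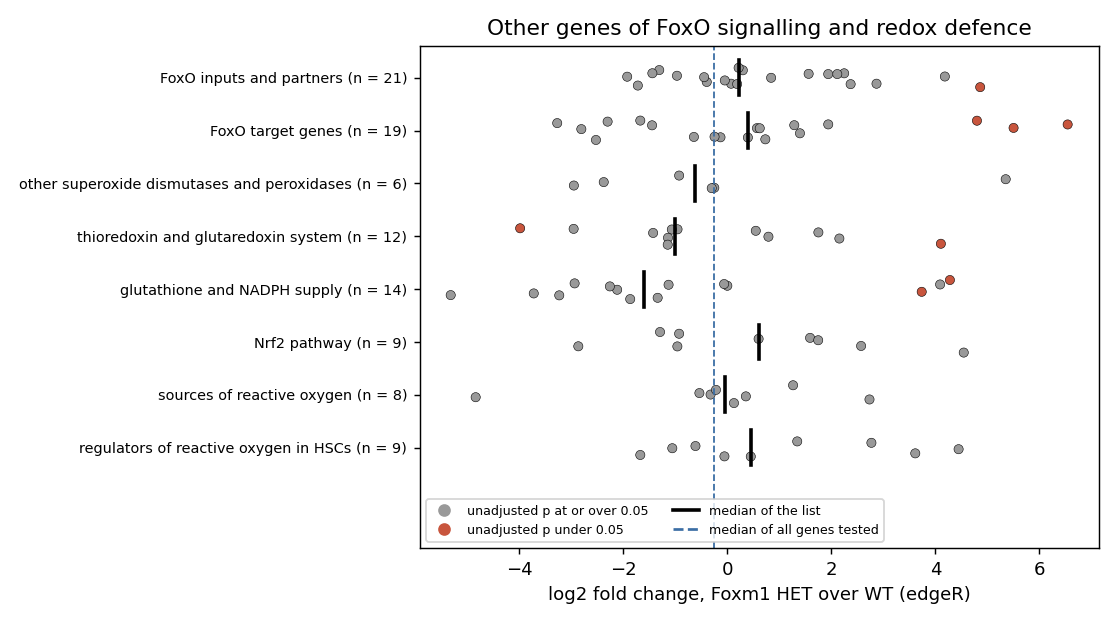
Each point is a gene of 1 of 8 lists, with its log2 fold change of Foxm1 HET over WT on the x axis, a black bar at the median of the list and a dashed blue line at the median of all genes tested. The lists lie on both sides of the dashed line, from a median of -1.61 for glutathione and NADPH supply to 0.60 for the Nrf2 pathway, and red points mark the 8 genes with an unadjusted p under 0.05.

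The remaining superoxide dismutases and peroxidases had 6 tested genes, 1 higher and 5 lower. Prdx6, a peroxiredoxin that also acts on phospholipids, had 2900, 8629 and 2088 reads in WT against 1410, 5 and 1890 reads in Foxm1 HET, apart once scaled (log2 fold change -2.95, SE 1.99, adjusted p = 0.949, edgeR). Prdx2, which is abundant in red cells, had 15, 797 and 80 reads in WT against 305, 2 and 1088 in Foxm1 HET and a log2 fold change of -0.25 (adjusted p = 0.998). Prdx5 stood at -2.38 (adjusted p = 0.998) and the secreted Gpx3 at 5.35 (adjusted p = 0.945), the latter on 11, 1 and 0 reads in WT against 813, 1 and 56 in Foxm1 HET.

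In the thioredoxin and glutaredoxin system 12 genes were tested, of which 5 were higher and 7 lower (median -1.02). Txnrd1, the reductase that recycles thioredoxin, had 868, 712 and 5373 reads in WT against 959, 55 and 4903 in Foxm1 HET (log2 fold change -1.43, SE 1.99, adjusted p = 0.998, edgeR). Its highest libraries were replicate 3 of each genotype, of which WT replicate 3 was also high in Txn1. Arrdc4, an alpha-arrestin of the same family as Txnip, had 757, 262 and 7 reads in WT against 2899, 4467 and 1260 in Foxm1 HET (log2 fold change 4.10, SE 2.03, unadjusted p = 0.0431, adjusted p = 0.786, edgeR). Its genotypes overlapped by WT replicate 1 alone. Arrdc1, a further alpha-arrestin, stood at 2.15 (adjusted p = 0.998). The glutaredoxins Glrx and Glrx3 were at -3.99 (adjusted p = 0.797) and -2.96 (adjusted p = 0.998). Most Glrx reads came from WT replicate 3, with 3, 1269 and 12690 in WT against 1609, 67 and 39 in Foxm1 HET.

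Glutathione and NADPH supply had 3 of 14 tested genes higher and 11 lower, and the lowest median of the 8 lists, -1.61. The highest 2 by smallest p were the NADPH-producing enzymes Pgd (3.74, adjusted p = 0.658) and Idh1 (4.28, adjusted p = 0.715). Both drew most of their Foxm1 HET reads from replicate 2, with 17657 of Pgd and 6958 of Idh1. On the other side were Ggct at -3.73 (adjusted p = 0.941) and Mgst1, a microsomal glutathione transferase, at -5.32 (adjusted p = 0.945).

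Of the Nrf2 pathway, 5 of 9 tested genes were higher. Nfe2l2, which encodes the Nrf2 factor itself, was nearly as even across libraries as Txnip, with 2464, 5094 and 4820 reads in WT against 13936, 2710 and 7618 in Foxm1 HET, a range of 3.76-fold in CPM. Its genotypes overlapped (log2 fold change 0.60, SE 1.61, adjusted p = 0.998, edgeR). Mafg, a small Maf partner of Nrf2, stood at 4.54 (adjusted p = 0.971) and the repressor Bach1 at -2.87 (adjusted p = 0.985). The value of Mafg rests on Foxm1 HET replicate 1, with 13, 0 and 17 reads in WT against 1441, 1 and 31 in Foxm1 HET. Sqstm1 was at 2.57 and the ferritin gene Fth1 at -0.93 (adjusted p = 0.998 for both).

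Sources of reactive oxygen had 4 of 8 tested genes higher and 4 lower. Cyba, a membrane subunit of the NADPH oxidase, had 576, 168 and 2711 reads in WT against 62, 1 and 219 in Foxm1 HET (log2 fold change -4.84, SE 2.89, adjusted p = 0.934, edgeR). Under TMM scaling the genotypes of Cyba were apart, and with library size alone they overlapped. Its cytosolic partners Rac2 and Ncf4 were at 1.26 and -0.54 and xanthine dehydrogenase, Xdh, was at 2.73. The NADPH oxidase is most abundant in myeloid cells, whose marker sums are given above, and the part of such cells in these values was not tested. Regulators of reactive oxygen in HSCs had 5 of 9 higher. Bmi1, a Polycomb protein needed for HSC self-renewal, had 264, 47 and 61 reads in WT against 980, 1133 and 732 in Foxm1 HET, with genotypes apart (log2 fold change 3.61, SE 2.66, adjusted p = 0.971, edgeR). Stk11, with 23, 198 and 4 reads in WT against 3241, 2 and 5608 in Foxm1 HET, stood at 4.45 (adjusted p = 0.938). Ucp2 was at -1.06 and Cited2 at -1.68 (adjusted p = 0.998 for both).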

How the data were processed

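LT-HSC RNA was sequenced in 3 WT and 3 Foxm1 HET libraries, grouped by the genotype in the labels. The authors mapped single reads with STAR 2.7.2b to GRCm38. The counting program and its use of strand are not given in the sources used here. For library preparation the methods name a Clontech kit and the labels a stranded kit after removal of ribosomal RNA. The authors deposited raw read counts for 27179 genes and normalized log2 values for 12179 of them.

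Counts were tested with edgeR 4.0.16 in R 4.3.3 (default filter, TMM scaling, quasi-likelihood test, Benjamini-Hochberg adjustment over 8195 genes, threshold 0.05). SE is the log2 fold change over the square root of F. Each gene's log2 CPM (prior count 2) was also compared by an exact permutation test. TPM came from counts and the deposited gene lengths. Intervals over counts of 0 cover counting error only.

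Alternatives were scaling by RLE, by upper quartile or by library size alone, a filter of 10 reads in every library or none, a replicate block, the removal of each library in turn, DESeq2 1.42.0, limma-voom, limma 3.58.1 on the deposited table, and, for overlap only, percentile ranks and a prior count of 0.5. Overlap without Foxm1 HET replicate 2 was added after the data were seen. All 10 genes were named, with Foxm1, Prdx2, Txnrd1, Nfe2l2 and, of each pathway list, any gene past the threshold and up to 2 with the smallest p in each direction. The gene counts cover 1 gene chosen by this rule whose values are not reported here. The genes and lists were chosen with earlier results of these data known. Symbols came from the deposited table and RefSeq for 94.1% of identifiers.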

Additional observations from a re-analysis of the deposited data

How the results depend on the processing

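In the 15 alternatives to the edgeR fit, 0 of the genes given an adjusted p had one under 0.05. These were all 9 genes in 13 alternatives, 6 with at least 10 reads in every library (without Foxo1, Sod2 and Prdx1) and 8 with DESeq2 (without Prdx1). Txn1, Sod1, Cat and Txnip kept their sign throughout. Gpx1 turned positive under RLE (0.47), upper-quartile scaling (0.32), DESeq2 (0.47) and the deposited table (0.21), and when libraries were left out it ran from -0.55 to 0.45. Foxo3 was 0.16 on the deposited table and ran from -1.26 to 0.16 with libraries left out. The same ranges were -0.44 to 2.51 for Foxo1, -1.10 to 2.08 for Sod2 and -5.79 to 0.45 for Prdx1. The count of non-overlapping genes among the 9 fell from 1 to 0 under RLE and library-size scaling. Over all genes, the 27 past the threshold became 10 under RLE, 43 with upper-quartile scaling, 7 with library size alone, 194 with DESeq2, 4 with limma-voom, and 0 with limma on the deposited table or with at least 10 reads in every library. Leaving out libraries gave 0 to 29, with 0 without WT replicate 1, WT replicate 2 or Foxm1 HET replicate 2 and 1 without WT replicate 3. Of the further pathway genes, 0 became 1 with upper-quartile scaling and 1 with DESeq2. The cause of these moves was not tested. Correlations of same-numbered deviations from the genotype means were 0.0162, -0.0253 and -0.0687, and those of differently numbered ones ran from -0.0253 to 0.0552. With 3 libraries a genotype and this spread, such values cannot tell whether the replicate numbers pair the libraries. With the replicate block, 0 genes passed the threshold, and it changed no call of the 9 genes. Foxo4, with at most 43 reads, and the genes under 100 reads in Foxm1 HET replicate 2 are known with the least counting precision.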
